A study of Mus musculus with 12 samples.

Results

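Tetraspanins are small proteins that cross the membrane 4 times and gather receptors, integrins and proteases into shared membrane domains. The 10 members described here are Tspan4, Cd9, Cd37, Cd53, Cd63, Cd81, Cd82, Cd151, Tspan3 and Tspan32, out of 18820 genes with a probe set of their own on the array. For each, the values are those of its single-gene probe set with the highest mean over the 12 arrays. The members were chosen by the log2 signals of Tspan4, which rose in cells given CHIR99021, an inhibitor of the kinase GSK3. The values of treated against untreated BCR-negative cells are therefore descriptions, without a test.

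The cells were primary cultures of B lymphomas from l-MYC;B1-8f mice of mixed C57BL/6J x BALB/c strain. These tumours carry a MYC transgene and a B cell receptor (BCR) whose heavy chain gene can be deleted with Cre, supplied here as cell-permeable TAT-Cre. The 4 groups were BCR-negative cells from mixed cultures with CHIR99021, BCR-independent cells, BCR-negative cells without the inhibitor, and BCR-positive cells, all sorted after 4 days of growth together with the other cell kind. BCR-independent cells were BCR-negative lines obtained after prolonged culture, grown in a mixture with BCR-positive cells of their own tumour. Each of 3 tumours (2567, 2646 and 2676) gave 1 array to each group, and the BCR-independent array of a tumour stood for 1 clone (clones 8, 7 and 1). Sex and age were not used here. The titles of the untreated BCR-negative and BCR-positive arrays of tumours 2646 and 2676 carry an unexplained (2), so in those tumours the mark and the group cannot be told apart.

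Cd81 is found on the surface of many cell types, B cells included, while Cd37 is abundant on mature B cells and Cd53 on nearly all leukocytes. Cd63 and Cd9 are best known from lysosomes, exosomes and platelets. Tspan4 binds integrins and builds migrasomes, the vesicles that moving cells leave on their retraction fibres.

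Values are log2 signals, so a difference of 1 is a doubling. A probe set entered the tests when it exceeded the 40th percentile of its array (3.06 to 3.16 over the arrays) on at least 3 arrays, and 12961 genes did. 8 of the 10 members passed. Cd9 and Cd63 did not, with 0 of 12 arrays above that percentile. Array medians lay between 3.32 and 3.44, and precision is limited by having 3 arrays a group. Differences were fitted with limma, with group and tumour as terms. A call means an adjusted p under 0.05 (Benjamini-Hochberg, over all genes tested). Among B cell markers, 8 of the 9 with a probe set lay above the 40th percentile on all arrays of every group, Cd79a and Pax5 among them. The ninth, Ms4a1, which encodes CD20, did so on 1 of 12 arrays. Markers of T cells averaged between 2.97 and 3.16 and those of macrophages and monocytes between 3.21 and 3.62 on single arrays. Plasma cell markers averaged between 4.76 and 5.50, with an uneven list. Group means were 7.33 to 8.45 for Irf4, 6.03 to 6.21 for Xbp1 and 5.73 to 5.93 for Sdc1. They were only 2.98 to 3.08 for Prdm1 and 2.91 to 3.14 for Tnfrsf17. Stroma and endothelium markers averaged between 3.95 and 4.46, with 5 of 5 above the 40th percentile on all arrays. By group, Itgam of the macrophage list averaged 4.48 to 5.23 and Pecam1 of the endothelium list 5.97 to 6.76. Ighv1-72, the variable segment of the deletable heavy chain, averaged 5.77 in treated BCR-negative, 4.04 in BCR-independent, 6.44 in BCR-negative and 9.62 in BCR-positive cells. Axin2, a target of the beta-catenin pathway that GSK3 restrains, averaged 3.66 in treated and 3.59 in untreated BCR-negative cells, a difference of 0.07 (limma adjusted p = 0.772). Its arrays ranged from 3.44 to 3.79, little above the array medians, where differences are compressed. Lef1, also looked up for this pathway, exceeded the 40th percentile on 0 of 12 arrays. Whether the pathway responded is therefore not read from these genes.

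**Figure D1:**
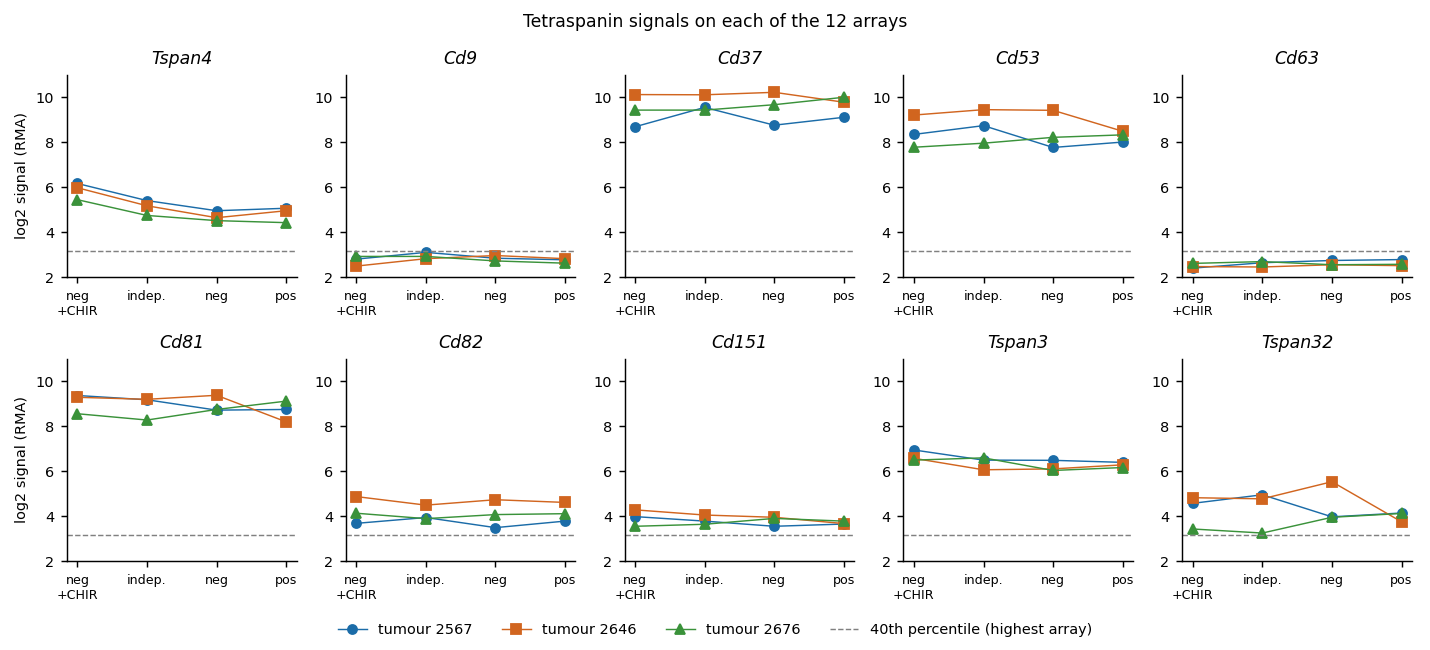
Log2 signal of each tetraspanin (y axis) in BCR-negative cells with CHIR99021, BCR-independent, BCR-negative and BCR-positive cells (x axis), with 1 point per array, a colour per tumour and a dashed line at the highest array's 40th percentile (3.16). Tspan4 stands highest in treated cells of every tumour, while Cd9 and Cd63 stay under the line on all 12 arrays.

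Tspan4, the migrasome tetraspanin, carried the change that led to this choice of genes. It read 6.16, 5.97 and 5.44 in treated BCR-negative cells of tumours 2567, 2646 and 2676, against 4.95, 4.64 and 4.51 in untreated BCR-negative cells. All 3 treated arrays lay above all untreated ones. The increase was 1.21, 1.33 and 0.93 in the 3 tumours, with a mean of 1.16 (SE 0.09), or 2.23-fold. In bulk samples such as these, a different number of cells of a type and a different amount of RNA per cell, fewer cells and less RNA included, cannot be told apart. It ranked 9 by size among the increases of 12961 genes. In tumour 2567, where neither array has the (2) in its title, the increase was 1.21. BCR-independent cells read 5.40, 5.17 and 4.74, below the treated cells of the same tumour each time, by 0.76, 0.79 and 0.70. BCR-positive cells read 5.06, 4.95 and 4.42, and treated cells exceeded them by 1.10, 1.02 and 1.02. The treated arrays overlapped with no other group.

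Of the B cell markers, limma called 0 of the 8 tested in the same comparison, and 3 had an unadjusted p under 0.05, beside 16.6% of all genes. Ebf1, a transcription factor of B cell identity, differed between treated and untreated BCR-negative cells by -1.86, -1.26 and -0.52, without overlap (limma adjusted p = 0.0677). Pax5, another such factor, differed by -0.50, -0.49 and -0.38, also without overlap (limma adjusted p = 0.0902), and Cd79b by -0.05, -0.58 and -0.62 (limma adjusted p = 0.154). Cd79a differed by 0.44, -0.09 and -0.23. The mean log2 signal of the B cell marker list lay between 7.59 and 8.09 on treated and between 7.85 and 8.34 on untreated arrays. Their part in the values of Tspan4 was not tested.

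The order of group means was 5.86 ± 0.37 in treated BCR-negative, 5.11 ± 0.33 in BCR-independent, 4.81 ± 0.34 in BCR-positive and 4.70 ± 0.23 in BCR-negative cells (SD, n = 3 each). Apart from the treated cells, neighbours in that order overlapped across tumours. The tumours themselves kept 1 order, with 2567 highest and 2676 lowest in every group. Of the variance of Tspan4 over the 12 arrays, 74.6% lay between groups, 23.6% between tumours and 1.75% in the remainder, where the medians over all genes tested were 20.7%, 39.8% and 32.2%. The first of these shares holds the contrast that chose the gene.

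The comparison of BCR-independent with BCR-positive cells uses none of the arrays that chose Tspan4, although the fit draws its spread from all 12. Tspan4 was higher in the BCR-independent cells of each tumour, by 0.34, 0.23 and 0.32, and the mean difference of 0.30 (95% interval 0.09 to 0.51) missed the threshold (limma adjusted p = 0.374, unadjusted p = 0.0108). The groups overlapped. Against BCR-negative cells, whose arrays the choice did use, BCR-independent cells read higher by 0.45, 0.54 and 0.24. That mean was 0.41 (SE 0.09), given as a description. With loss of the receptor alone, BCR-negative minus BCR-positive, Tspan4 differed by -0.11, -0.31 and 0.09, a mean of -0.11 (SE 0.09), likewise a description.

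The RefSeq table lists 2 promoters for Tspan4. They are shown because Tspan4 carries the largest difference among the members, beside that of Tspan3, the only other member higher in treated cells by a like amount in every tumour. Each runs from 250 bases before to 50 after a gene start, in assembly GRCm38.p6, at chr7:141474986-141475285 and chr7:141476130-141476429 on the plus strand for Tspan4 and chr9:56161021-56161320 on the minus strand for Tspan3. Capitals mark the E-box CACGTG, the site letters that MYC and TFEB family factors can read.
Tspan4 promoter 1: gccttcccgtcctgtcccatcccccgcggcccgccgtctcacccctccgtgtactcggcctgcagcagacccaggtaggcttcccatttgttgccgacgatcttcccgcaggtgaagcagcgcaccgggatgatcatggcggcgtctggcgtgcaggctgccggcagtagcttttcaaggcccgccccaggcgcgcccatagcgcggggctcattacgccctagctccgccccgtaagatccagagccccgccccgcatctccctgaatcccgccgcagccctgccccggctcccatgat
Tspan4 promoter 2: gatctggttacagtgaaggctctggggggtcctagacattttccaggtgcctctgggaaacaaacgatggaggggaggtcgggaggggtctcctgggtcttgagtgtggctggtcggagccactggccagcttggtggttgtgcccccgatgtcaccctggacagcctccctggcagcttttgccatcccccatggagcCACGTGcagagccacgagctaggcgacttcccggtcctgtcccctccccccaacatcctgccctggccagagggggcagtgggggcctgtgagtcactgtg
Tspan3 promoter: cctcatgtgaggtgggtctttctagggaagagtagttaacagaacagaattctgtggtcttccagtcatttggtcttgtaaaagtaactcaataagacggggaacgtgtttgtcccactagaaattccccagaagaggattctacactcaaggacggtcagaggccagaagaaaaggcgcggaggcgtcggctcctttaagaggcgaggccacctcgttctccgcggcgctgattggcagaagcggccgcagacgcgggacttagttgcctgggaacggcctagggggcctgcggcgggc

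In all, 3 motifs were searched on both strands, the E-box CACGTG, the TCF/LEF core CTTTGA and the FOXO site GTAAACA. The windows of promoter 1 of Tspan4 and of Tspan3 held 0 of them. Promoter 2 of Tspan4 held 1 E-box, whose first base lies 51 bases before the start. E-boxes stand in 7.15% of the 32851 promoters in the table, the TCF/LEF core in 16.0% and the FOXO site in 3.65%. Over the 10 members there were 15 promoters, of which 2 held an E-box (Tspan4 and Cd37), 2 the TCF/LEF core (Cd63 and Cd82) and 0 the FOXO site. No match says only that these letters are not in the window.

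Tspan4 has another tetraspanin close by. In the RefSeq gene order on chromosome 7, Cd151 and Polr2l precede it and Chid1 and Ap2a2 follow. Polr2l, which encodes a subunit shared by the RNA polymerases, averaged 8.52 in treated and 8.08 in untreated BCR-negative cells, with differences of 0.44, 0.39 and 0.49 in the 3 tumours and no overlap of the groups. The mean of 0.44 missed the threshold (limma adjusted p = 0.0998). The treated-minus-untreated differences of the other neighbours were 0.12 for Cracr2b, 0.14 for Cd151, 0.07 for Chid1 and 0.19 for Ap2a2, and Muc6 did not pass the filter.

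After removal of tumour means, the 5 genes whose profile over the 12 arrays was most like that of Tspan4 were Stt3a (r = 0.97), Cyp20a1 (r = 0.96), Crtap (r = 0.96), 9130401M01Rik (r = 0.96) and Hspe1 (r = 0.95). Stt3a encodes a catalytic subunit of the enzyme that attaches N-glycans, Crtap a collagen-modifying protein and Hspe1 a mitochondrial chaperonin. Stt3a averaged 9.13 in treated and 8.75 in untreated BCR-negative cells, with differences of 0.39, 0.45 and 0.31 in the 3 tumours. The 2 least alike were Klhl24 (r = -0.95) and the histone variant H2az2 (r = -0.95), where Klhl24 averaged 4.91 in treated and 7.81 in untreated cells and H2az2 averaged 5.53 in treated and 7.48 in untreated cells. The arrays share their tumours and treatment, so these values of r are descriptions.

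Tspan3, a widely expressed tetraspanin first studied in oligodendrocytes, moved most like Tspan4 among the members (r = 0.80 over 12 arrays, and 0.73 to 0.89 with a tumour left out), but ranked 470 of 12960 genes by that measure. It read 6.94, 6.57 and 6.49 in treated BCR-negative cells, against 6.48, 6.10 and 6.03 in untreated ones. The increases of 0.46, 0.47 and 0.46 were nearly equal in the 3 tumours, and the lowest treated array stood just above the highest untreated one. The mean of 0.46 (SE 0.13) is 1.38-fold. BCR-positive cells read 6.39, 6.28 and 6.16, all below the treated arrays. The excess of treated over BCR-positive cells was 0.55, 0.29 and 0.33, and its mean of 0.39 (95% interval 0.09 to 0.69) missed the threshold (limma adjusted p = 0.199). BCR-independent cells read 6.49, 6.06 and 6.59. In tumour 2676 they exceeded BCR-negative cells by 0.56, and in the other tumours the difference was 0.01 and -0.04.

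Counts over the members were read against all genes. Between treated and untreated BCR-negative cells, the contrast that chose them, no calls of members are counted. Among all genes 1.91% were called there, 1.06% higher and 0.849% lower, and 16.6% had an unadjusted p under 0.05. As a description, 2 of the 8 members that passed the filter, Tspan4 and Tspan3, had groups that did not overlap, beside 10.6% of genes. The difference was positive in all tumours for 3 members (Tspan4, Tspan3 and Cd82), beside 25.7% of genes, and negative in all for 1 (Cd37), beside 15.8%, where 41.4% of genes had 1 sign in all tumours.

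In the comparisons of treated with BCR-positive and BCR-independent cells, Tspan4 is left out of the counts, since the treated arrays chose it. Of the other 7 members, limma called 0 against BCR-positive cells, beside 0.802% of genes. There 1 of the 7, Tspan3, had an unadjusted p under 0.05 and groups without overlap, beside 15.6% and 11.5% of genes. Against BCR-independent cells limma called 0 of the 7, beside 0.162% of genes, with 0 at an unadjusted p under 0.05 and 0 without overlap, beside 12.3% and 8.19%. These comparisons share the treated arrays.

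In the comparisons without treated cells the 8 members overlapped between groups. For BCR-negative against BCR-positive cells limma called 0 of the 7 members other than Tspan4, with 0 at an unadjusted p under 0.05, and over all genes 0.00772% were called, 4.51% did not overlap and 3.19% had an unadjusted p under 0.05. For BCR-independent against BCR-negative cells limma called 0 of these 7, with 0 at an unadjusted p under 0.05, and over all genes 0.00772% were called, 4.54% did not overlap and 5.99% had an unadjusted p under 0.05. For BCR-independent against BCR-positive cells limma called 0 of the 8 members, with 1, Tspan4, at an unadjusted p under 0.05, and over all genes 0.0849% were called, 7.35% did not overlap and 9.61% had an unadjusted p under 0.05.

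**Figure D2:**
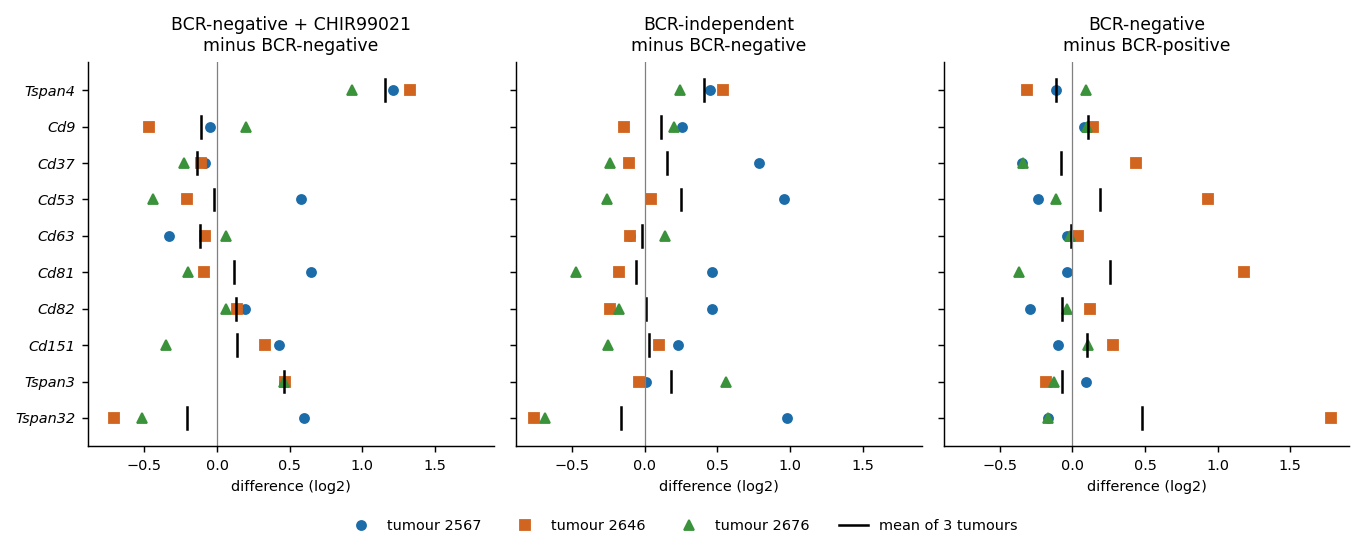
Differences in log2 signal (x axis) of each tetraspanin (rows) in the 3 tumours (points) with their mean (bars), for treated minus untreated BCR-negative, BCR-independent minus BCR-negative and BCR-negative minus BCR-positive cells. With CHIR99021 the points of Tspan4 (0.93 to 1.33) and Tspan3 (0.46 to 0.47) lie to the right of 0, while those of Tspan32 spread from -0.71 to 0.60. Cd9 and Cd63 did not pass the filter, so their points are not read.

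The leukocyte tetraspanins Cd53, Cd81 and Tspan32 shifted together within each tumour, but in directions that differed between tumours. Cd53, which stabilises receptors such as L-selectin on lymphocytes, read 8.34, 9.20 and 7.77 in treated, 8.73, 9.44 and 7.95 in BCR-independent, 7.76, 9.41 and 8.21 in BCR-negative and 8.00, 8.48 and 8.32 in BCR-positive cells. Cd81, a broadly expressed surface tetraspanin, read 9.36, 9.28 and 8.55 in treated, 9.17, 9.19 and 8.27 in BCR-independent, 8.71, 9.37 and 8.74 in BCR-negative and 8.74, 8.19 and 9.11 in BCR-positive cells. Tspan32, a haematopoietic tetraspanin that restrains T cell proliferation in mice, read 4.57, 4.82 and 3.43 in treated, 4.95, 4.77 and 3.25 in BCR-independent, 3.97, 5.53 and 3.95 in BCR-negative and 4.14, 3.75 and 4.12 in BCR-positive cells. In tumour 2567 all 3 genes were higher in treated and BCR-independent than in BCR-negative and BCR-positive cells. In tumour 2676 they were lower there. In tumour 2646 the BCR-positive array stood apart, below the other 3 arrays for each gene.

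With tumour means removed, r over the 12 arrays was 0.91 for Cd81 with Tspan32, 0.90 for Cd53 with Tspan32 and 0.85 for Cd53 with Cd81, and with a tumour left out these lay between 0.75 and 0.94. The pattern was not theirs alone, with r at 0.79 for Cd81 with Cd151 and 0.74 for Cd37 with Cd53. It was 0.71 for Cd53 with Cd151 and for Cd37 with Tspan32. Cd151 stands here for 1 of its 2 probe sets, which disagreed. Outside the family, Cd79a and Itga4 had the same signs by tumour. Treated minus untreated BCR-negative cells gave 0.44, -0.09 and -0.23 for Cd79a and 0.84, -0.26 and -0.09 for Itga4. BCR-negative minus BCR-positive cells gave -0.20, 0.43 and -0.06 for Cd79a and -0.29, 0.38 and -0.13 for Itga4. Pax5 did not share these signs. The share of all genes with this pattern was not counted. Tspan32 and Cd81 are next to each other on chromosome 7, and Cd53 is on chromosome 3. The arrays of a tumour share their source, so the correlations are descriptions.

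**Figure D3:**
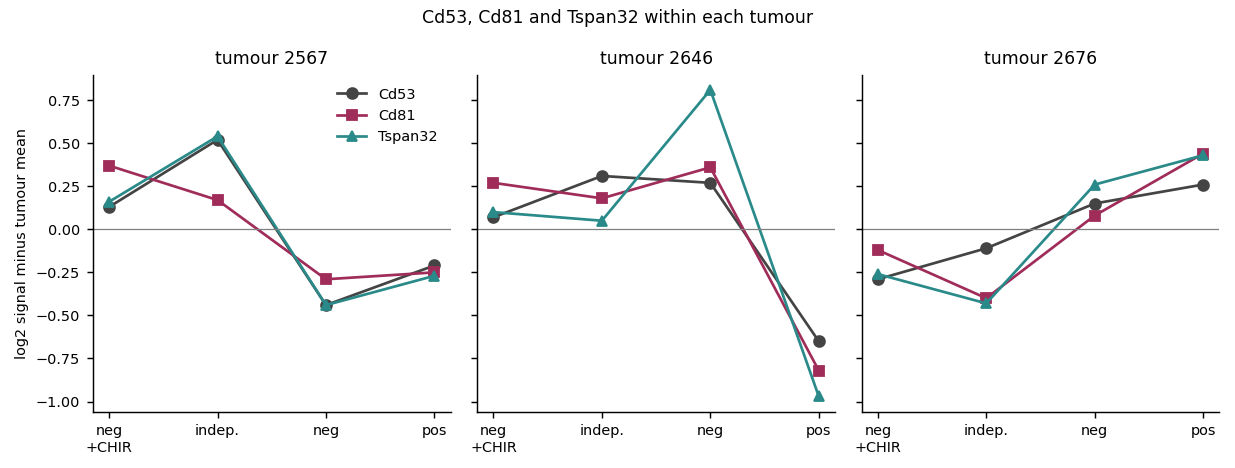
Log2 signal of Cd53, Cd81 and Tspan32 minus the mean of the tumour's 4 arrays (y axis) in the 4 groups (x axis), with 1 panel per tumour. The 3 genes rise and fall together, above 0 on the left and below 0 on the right in tumour 2567, the other way round in tumour 2676, and lowest in BCR-positive cells of tumour 2646.

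The group differences of these genes were small against their spread. BCR-negative minus BCR-positive cells differed by -0.17, 1.78 and -0.17 for Tspan32, a mean of 0.48 (95% interval -0.45 to 1.41, limma adjusted p = 0.999, and -0.17 without tumour 2646). For Cd81 that mean was 0.26 (95% interval -0.46 to 0.97, and -0.20 without tumour 2646) and for Cd53 0.19 (95% interval -0.43 to 0.82, and -0.17 without tumour 2646). BCR-independent minus BCR-negative cells differed by 0.98, -0.76 and -0.69 for Tspan32, a mean of -0.16 (95% interval -1.09 to 0.77, limma adjusted p = 0.971). Treated minus untreated BCR-negative cells gave 0.60, -0.71 and -0.52 for Tspan32, 0.65, -0.09 and -0.20 for Cd81 and 0.58, -0.21 and -0.44 for Cd53. For all 3 genes tumour 2567 alone was positive. Tumour 2567 is also the tumour in which all arrays lack the (2) in their titles. In the other tumours the (2) separates the BCR-negative and BCR-positive arrays from the treated and BCR-independent ones. With the (2) as a term, that split between groups is therefore estimated from tumour 2567 alone. With that term, treated minus untreated cells gave 0.44 (SE 0.53) for Tspan32, 0.42 (SE 0.35) for Cd53 and 0.50 (SE 0.43) for Cd81. Without the term the values were -0.21, -0.02 and 0.12. The move to the sign of tumour 2567 was thus largely set by the model, and no conclusion is drawn from it.

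Cd37, a B cell tetraspanin whose loss leads to B cell lymphoma in mice, varied by tumour more than by group. It read 8.68, 10.11 and 9.42 in treated, 9.54, 10.10 and 9.42 in BCR-independent, 8.75, 10.21 and 9.66 in BCR-negative and 9.10, 9.77 and 9.99 in BCR-positive cells. All groups overlapped, and 72.9% of its variance lay between tumours against 4.66% between groups. The fitted BCR-negative minus BCR-positive difference was -0.08 (95% interval -0.59 to 0.43). Treated minus untreated BCR-negative cells gave -0.08, -0.11 and -0.23.

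Cd82, known as a metastasis suppressor of solid tumours, was set by tumour to a still larger share. Its arrays ranged from 4.49 to 4.87 in tumour 2646, from 3.89 to 4.13 in tumour 2676 and from 3.49 to 3.94 in tumour 2567. Tumour 2646 thus overlapped with neither of the others, and 89.4% of the variance lay between tumours against 1.52% between groups. The 95% interval of BCR-negative minus BCR-positive cells ran from -0.37 to 0.23 and that of BCR-independent minus BCR-negative cells from -0.29 to 0.32. Treated minus untreated BCR-negative cells gave 0.19, 0.14 and 0.06.

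Cd151, the tetraspanin of laminin-binding integrins, has 2 probe sets, which lay between 3.55 and 4.28 and between 3.58 and 3.97, not far above the array medians. They disagreed, with treated-minus-untreated differences of 0.43, 0.33 and -0.35 in the first and -0.02, -0.04 and 0.16 in the second. In the first, used here, treated cells exceeded BCR-positive cells by 0.24 (95% interval -0.12 to 0.59, limma adjusted p = 0.538).

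Cd9, which marks marginal zone and B1 cells and antibody-secreting cells, ranged from 2.49 to 3.10 over the 12 arrays. Cd63, the tetraspanin of lysosomes and exosomes, ranged from 2.40 to 2.78. No array of either exceeded its 40th percentile, so these signals give only a bound and no fold change.

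**Figure D4:**
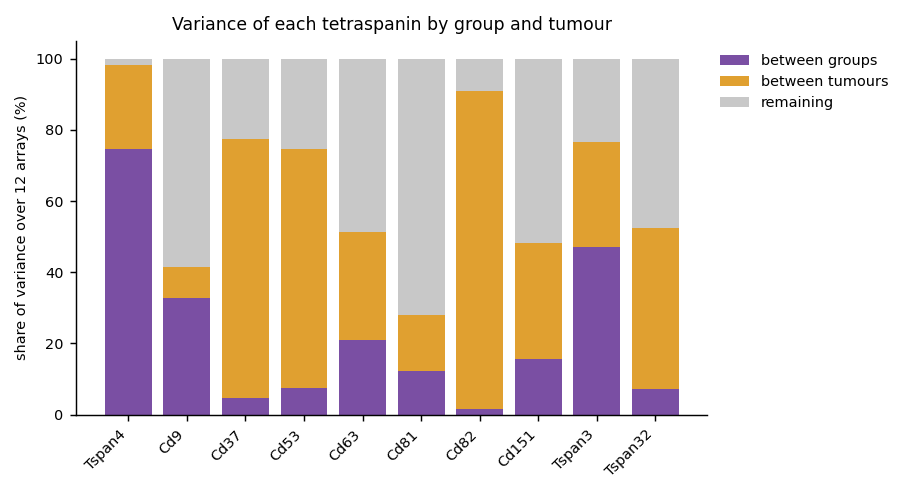
Share of each tetraspanin's variance over the 12 arrays (y axis, percent) that lies between groups, between tumours and in the remainder (stacked bars, 1 per gene). Groups take 74.6% for Tspan4 and 1.52% for Cd82, and tumours take 23.6% and 89.4%.

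The rest of the family gave the setting. Of 22 further tetraspanins, 20 had a single-gene probe set and 14 passed the filter. Between treated and untreated BCR-negative cells 1 of the 14 was called higher and 0 lower, with a median difference of 0.00881 against 0.0256 over all genes tested. That gene was Tspan5, 1 of the tetraspanins that escort the protease Adam10 to the surface. It read 6.47, 7.14 and 7.02 in treated and 5.90, 6.19 and 6.54 in untreated BCR-negative cells. The rise of 0.57, 0.95 and 0.48, with a mean of 0.66, was called (SE 0.11, limma adjusted p = 0.0338), although the groups overlapped across tumours. The call was lost without tumour 2567, 2646 or 2676 (adjusted p = 0.0956, 0.39 and 0.149) and when the (2) of the titles entered as a term (adjusted p = 0.132). It was also lost with no replicate block (adjusted p = 0.578) and with only the compared groups in the fit (adjusted p = 0.0646), and held in 7 of 13 alternatives. Among the other escorts of Adam10, Tspan10 differed by 0.03, Tspan14 differed by -0.16, Tspan15 by -0.03, Tspan17 by -0.06 and Tspan33 by 0.02. Adam10 itself differed by -0.06. Adam10 stands in the list of shedding and membrane cortex partners. Of these, limma called 0 of 8 in this comparison, with 0 at an unadjusted p under 0.05, beside 1.91% and 16.6% of all genes.

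Tspan2, a tetraspanin of nerve and glial cells, had the most negative difference among these 14 genes. It read 3.74, 3.81 and 4.03 in treated and 5.29, 5.03 and 5.28 in untreated BCR-negative cells, without overlap. The mean difference of -1.34 (SE 0.39) missed the threshold (limma adjusted p = 0.124). BCR-independent cells read 5.04, 3.82 and 3.58, so that clone 8 of tumour 2567 was near the untreated cells and the other clones near the treated ones. Tspan13 differed by -0.45, -1.01 and -0.58 with treatment. Tspan31, a gene next to Cdk4 that is amplified with it in human sarcomas, split by tumour, with arrays between 3.05 and 4.02 in tumour 2676, between 5.90 and 7.45 in tumour 2567 and between 7.45 and 7.91 in tumour 2646. Its treated-minus-untreated difference was 1.55 in tumour 2567 and 0.20 and 0.24 in the others. Tspan14 was lower in BCR-independent than in BCR-positive cells by 0.73, 0.27 and 0.88, a mean of -0.62 that missed the threshold (limma adjusted p = 0.254). In the 5 comparisons other than that of treated with untreated BCR-negative cells, limma called 0 of the 14. At an unadjusted p under 0.05 there were 1 for BCR-negative minus BCR-positive, 1 for BCR-independent minus BCR-negative, 5 for BCR-independent minus BCR-positive, 6 for treated minus BCR-positive and 3 for treated minus BCR-independent cells, beside 3.19%, 5.99%, 9.61%, 15.6% and 12.3% of all genes in that order. In the comparison of treated with untreated BCR-negative cells 4 of the 14 had one, beside 16.6% of all genes.

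**Figure D5:**
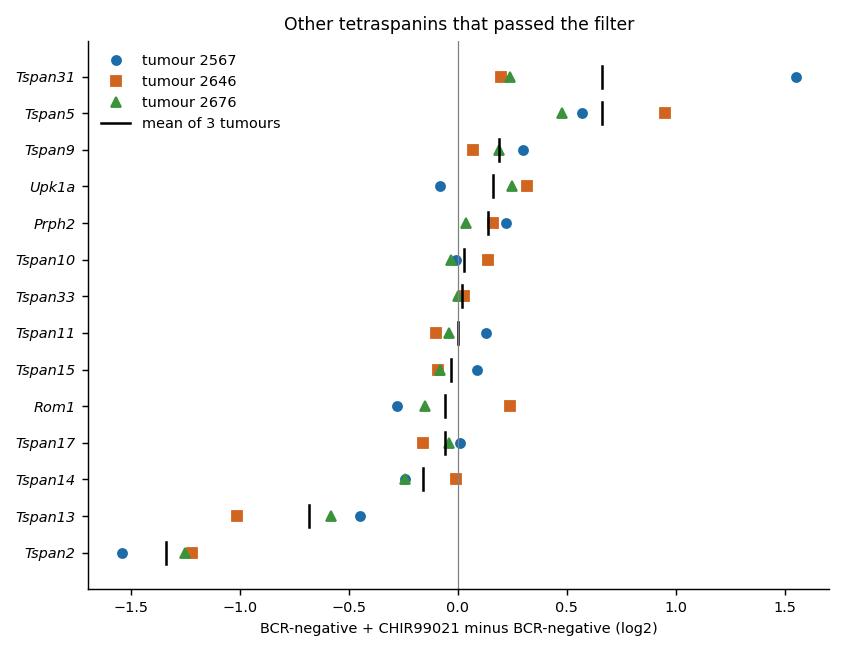
Difference in log2 signal between treated and untreated BCR-negative cells (x axis) for the 14 further tetraspanins that passed the filter (rows), with 1 point per tumour and the mean as a bar. Tspan5 lies at 0.48 to 0.95 and Tspan2 at -1.54 to -1.22, and most others lie near 0.

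Genes whose products work with tetraspanins were counted by list. Among 8 immunoglobulin superfamily and integrin partners, all tested, 1 was called lower in treated than in untreated BCR-negative cells, and the list's median was 0.117 against 0.0256 over all genes. This was Itga6, the laminin-binding integrin chain that pairs with Cd151. It read 4.35, 4.89 and 5.93 in treated and 5.40, 6.10 and 6.99 in untreated cells, and fell by 1.05, 1.21 and 1.07 in the 3 tumours. The mean was -1.11 (SE 0.21, limma adjusted p = 0.0375). The groups overlapped because tumour 2676 was high in both. The call was lost without tumour 2567, 2646 or 2676 (adjusted p = 0.114, 0.39 and 0.0681) and when the (2) of the titles entered as a term (adjusted p = 0.224). It was also lost with no replicate block (adjusted p = 0.625), and held in 8 of 13 alternatives.

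In the list of shedding and membrane cortex partners, Prkca was called in 2 comparisons. It encodes protein kinase C alpha, which tetraspanins such as Cd9 and Cd82 can bring to integrins. It read 5.15, 5.51 and 5.58 in treated, 5.21, 5.50 and 5.04 in BCR-independent, 5.49, 5.70 and 6.12 in BCR-negative and 6.21, 6.43 and 7.00 in BCR-positive cells. All BCR-positive arrays lay above all others. The list's median was -0.0249 for treated and -0.122 for BCR-independent minus BCR-positive cells, against 0.0287 and 0.0221 over all genes. Prkca did not have the list's largest change. For BCR-independent minus BCR-positive cells the lowest difference was -1.55, in a gene that was not called. The difference of Prkca from BCR-positive cells was -1.13 in treated cells (limma adjusted p = 0.0356), -1.29 in BCR-independent cells (limma adjusted p = 0.0445) and -0.77 in BCR-negative cells (limma adjusted p = 0.999). These comparisons share the BCR-positive arrays. Both calls were lost without tumour 2567, 2646 or 2676, with adjusted p between 0.055 and 0.261, and when the (2) of the titles entered as a term (adjusted p = 0.164 and 0.139). They were also lost with no replicate block (adjusted p = 0.234 in treated and 0.387 in BCR-independent cells) and with only the compared groups in the fit (adjusted p = 0.144 and 0.799). The call in BCR-independent cells was further lost with no filter (adjusted p = 0.0638) and with array weights (adjusted p = 0.0874), so that it held in 5 of 13 alternatives and the other in 7 of 13.

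Among membrane partners of Cd81 in B cells, 4 had a single-gene probe set and 2 were tested, Ifitm1 and Ifitm2. Limma called 0 of them in any comparison. At an unadjusted p under 0.05 there were up to 2, for BCR-independent minus BCR-positive cells, beside 9.61% of all genes. The median of BCR-independent minus BCR-negative cells was 0.543 against 0.0167 over all genes. Ifitm1, an interferon-induced membrane protein that associates with Cd81 in human B cells, read 4.19, 3.52 and 4.11 in BCR-independent, 3.21, 3.01 and 3.32 in BCR-negative and 3.07, 3.29 and 3.08 in BCR-positive cells. The BCR-independent arrays lay above both other groups. The difference from BCR-negative cells was 0.76 (limma adjusted p = 0.595) and from BCR-positive cells 0.79 (limma adjusted p = 0.215), past the threshold in neither, and 9 of 12 arrays exceeded their 40th percentile.

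Of 10 endosome and exosome partners of Cd63, 9 were tested and 0 called by limma in any of the 6 comparisons. In each, 0 or 1 had an unadjusted p under 0.05. Over the 6 comparisons, 0.00772% to 1.91% of all genes were called and 3.19% to 16.6% had such a p. Their median difference with treatment was -0.115. Of 10 migrasome genes, 9 were tested and 0 called, with 1 to 3 at an unadjusted p under 0.05, to be read against those same shares. The count was 1 for treated minus untreated BCR-negative cells, beside 16.6% of all genes. It was 3 for BCR-independent minus BCR-positive cells, beside 9.61%. With treatment 6 of these 9 had a positive difference and 3 a negative one, with a median of 0.187 against 0.0256 over all genes. Rab35, a small GTPase of migrasome formation, read 7.43, 7.62 and 7.34 in treated and 7.27, 6.96 and 6.94 in untreated BCR-negative cells, a difference of 0.41 (limma adjusted p = 0.128). Itga5, the fibronectin receptor chain of migrasomes, differed by 0.75, 1.16 and 0.42 between BCR-independent and BCR-positive cells, a mean of 0.78 that missed the threshold (limma adjusted p = 0.151).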

How the data were processed

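Sorted mouse B lymphoma cells were measured on 12 arrays of the Mouse Gene 1.1 ST design (Affymetrix). The deposited values are log2 signals of 35556 probe sets. Per the submitters' processing notes they were computed by RMA in Affymetrix Power Tools, with versions and genome build not given in the sources used here. RMA corrects background, brings arrays to a common distribution and compresses differences of dim probe sets. The table held 0 columns without a sample.

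Groups and tumour numbers came from the sample titles. Of the probe sets, 21218 had 1 gene symbol, 1881 had several and 12457 had none. Symbols of 21185 were updated by gene ID through a RefSeq table of GRCm38.p6, used for names, gene order and promoters. Probe sets had to exceed the 40th percentile on 3 or more arrays, and a gene was represented by its brightest one. R 4.3.3 and limma 3.58.1 were used for 1 model of group plus tumour on the 12 arrays (6 residual and 3.41 prior degrees of freedom), as tested on simulated data. Tumours served as a block because the same 3 tumours occur in each group. With only group means removed and no tumour term, arrays correlated between 0.284 and 0.792 within a tumour and between -0.716 and 0.165 across tumours. Removing a mean of 3 arrays by itself pushes the values across tumours below 0, so these ranges are descriptions. P-values measure the spread between these arrays, with 1 array per tumour and group.

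The members, gene lists and tests were chosen with earlier results of these data known. Named genes are the members, called genes and some of the largest differences of the lists, 3 neighbours either side of Tspan4, and the 5 most and 2 least like it. The alternatives left out the tumour block or the filter, raised the filter to the 60th percentile, averaged the probe sets of a gene, or entered the (2) of 4 titles as a term (5 residual degrees of freedom). Others used array weights, a robust eBayes fit with an intensity trend, quantile normalization, cyclic loess, the 2 compared groups alone, or the arrays without each tumour in turn. For the called partner genes and the correlations of Cd53, Cd81 and Tspan32 they were chosen after seeing the data.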

Additional observations from a re-analysis of the deposited data

How the results depend on the processing

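The rise of Tspan4 with CHIR99021 lay between 1.07 and 1.27 over 13 alternatives, against 1.16. It was 1.16 with no replicate block, as it must be with 1 array per tumour and group. Fitting the 2 groups alone or changing the eBayes fit cannot move this mean either. Nor can the filters or averaging probe sets, since Tspan4 has 1 probe set. Those settings are therefore no check of its size. Once the title mark was a term it was 1.21, a value that leans on tumour 2567. Of 38 member differences counted as held to a test, 0 were called in the main fit and 0 of 494 refitted values crossed the threshold. Settings that lowered the number of calls could hardly yield a crossing, so this is a weak check. The 38 include those of Tspan4 between BCR-negative cells and BCR-independent or BCR-positive cells. These use the untreated arrays that chose Tspan4, so they are descriptions here. The other 10, the treated-minus-untreated differences and those of Tspan4 in other comparisons of treated cells, were held only to a move of under 1 SD. Many member differences changed sign in at least 1 alternative, and others kept theirs. The changes were not confined to values near 0. Between BCR-negative and BCR-positive cells, Tspan32 at 0.48 ranged from -0.17 to 0.80 and Cd81 at 0.26 from -0.20 to 0.57. Cd53 between BCR-independent and BCR-negative cells, at 0.25, ranged from -0.11 to 0.69. Numbers of calls moved as well. The cause was not tested. With no replicate block they were lower in all 6 comparisons. Called genes then numbered 12 for treated minus untreated BCR-negative cells (248 with the block), 7 for treated minus BCR-positive (104) and 5 for treated minus BCR-independent (21). They numbered 4 for BCR-independent minus BCR-positive (11), 0 for BCR-independent minus BCR-negative (1) and 0 for BCR-negative minus BCR-positive cells (1). Members past the threshold were 0, 0 and 0 in the 3 comparisons of treated cells, against 1 in each. That 1 was Tspan4, so these counts describe the values that chose it and test nothing. In that same order of the 6 comparisons, only the 2 groups compared gave 109, 0, 1, 1, 0 and 2 genes, with members at 0 against BCR-positive and 0 against BCR-independent cells. The title mark as a term gave 32, 8 and 33 genes for treated cells, 0 for BCR-independent minus BCR-negative and 2 for BCR-negative minus BCR-positive cells. Array weights gave 1635, 168 and 39 genes for treated cells and 3 for BCR-independent minus BCR-positive cells, with 2 members past the threshold between treated and untreated cells, Tspan4 and Tspan3. Cyclic loess gave 183 genes for treated minus BCR-positive cells and 37 for treated minus BCR-independent cells, and quantile normalization gave 33 for treated minus BCR-independent cells. Without a tumour, the called genes ranged from 1 to 17, 4 to 19, 0 to 12, 1 to 4, 0 to 3 and 0 to 0 in the same order. Members past the threshold ranged from 0 to 1, 0 to 1 and 0 to 0 in the comparisons of treated cells. Tspan4 passed it without tumour 2676 against untreated BCR-negative and BCR-positive cells, and not without 2567 or 2646. These outcomes, and that of Tspan3 with array weights, rest on the arrays that chose the members. They too are descriptions and test nothing. Each tumour left out removes 4 of 12 arrays. Cd9 and Cd63 lay below the filter, which limits what the arrays can show of them.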
